A study of Homo sapiens with 6 samples.

Results

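The telomeric end of the long arm of chromosome 5 was examined here as a distant target of the FGF18 viewpoint in 4C-seq libraries of K562, an established line of human chronic myeloid leukaemia. This assay crosslinks chromatin, cuts it (here with HindIII, then DpnII), joins the ends, and sequences whatever became joined to 1 chosen place, the viewpoint. The end was taken as all HindIII fragments whose midpoint lay at least 3 Mb above the midpoint of the viewpoint fragment, chr5:170851908-170853009 (hg19), "above" meaning towards the telomere. It runs over chr5:173852458-180781346, a span of 6.93 Mb that ends with the last fragment listed on chromosome 5. It holds 920 fragments that had at least 1 read in any library, of 20398 such fragments on chromosome 5 and 206896 in all. The samples form 3 groups with 2 libraries each: cells with the empty vector (EV), cells in which silencer 1 was excised by CRISPR (S1KO), and cells in which silencers 1 and 2 were excised (DKO). All 3 groups are K562 cells, and whether an excised line is 1 clone or a pool is not stated in the labels.

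FGF18 encodes a secreted fibroblast growth factor. A fragment far from a viewpoint on the same chromosome usually meets it more often than a fragment on another chromosome, and contacts fall with distance along the chromosome. Silencers are DNA elements that lower the activity of genes, often at a distance and through contacts with them. Gene positions on hg19 were not used here, so genes are given only as background, in the order of the GRCh38.p14 annotation. Taking MSX2, a homeobox gene of craniofacial development, as the first gene of the end from general knowledge of the region, 92 protein-coding genes follow from it to the telomere. They include DRD1, which encodes a dopamine receptor, FGFR4, a receptor of fibroblast growth factors, and NSD1, a histone methyltransferase. Further out come SQSTM1, the autophagy receptor p62, CANX, a chaperone of the endoplasmic reticulum, and FLT4, a receptor of vascular endothelial growth factors C and D. The last genes before the telomere include 3 BTNL (butyrophilin-like) genes, 3 TRIM genes and RACK1, a ribosomal scaffold protein. Taking GABRA6 to TENM2, also from general knowledge, as the stretch at the same distances below FGF18, the annotation counts 8 protein-coding genes there.

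The libraries held 708503 to 1919737 reads on 36612 to 47633 listed fragments. Chromosome 5 outside the 10 kb beside the viewpoint took 10.7% to 36.0% of them. EV replicate 2 stood apart with the lowest of these shares, and its fragments on chromosome 5 numbered 3954 against 4957 to 6762 in the other 5 libraries. Its effect is given beside the results that rest on EV and move with it. The sample labels do not tell whether replicates are separate cultures. The p-values thus measure the spread between libraries alone, which may be technical.

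Contacts with the end were sparse in every group, and most of what a library recorded there was a scattered set of fragments. Reads in the end numbered 4966 and 5860 for EV, 9996 and 9305 for S1KO, and 6869 and 10703 for DKO (replicates 1 and 2 in this order throughout). These reads lay on 326 and 167 fragments in EV, 353 and 313 in S1KO, and 186 and 347 in DKO. EV replicate 2 and DKO replicate 1 thus listed about equally few fragments, and the groups overlap. A listed fragment carried as many reads in the end as elsewhere in the genome: the median was 11 to 32 reads per library in the end and 10 to 34 on other chromosomes. Read counts per fragment at this distance hence separate the end from other chromosomes little, whereas how many fragments per Mb have a read does. Numbers of such fragments are therefore used beside the reads.

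All 6 libraries contacted the end of chr5q more densely than other chromosomes. EV libraries listed 47.0 and 24.1 fragments per Mb there, S1KO 50.9 and 45.2, and DKO 26.8 and 50.1, against 10.6 to 15.0 per Mb over all other chromosomes. Relative to the other chromosomes of the same library, the density was 3.32 and 1.61 in EV, 3.46 and 3.61 in S1KO, and 2.22 and 4.73 in DKO. The 2 libraries of EV and the 2 of DKO differed from each other by more than the groups did. The part of chromosome 5 further below the viewpoint than the end lies above it had relative densities of 1.27 to 2.81. In each library this was lower than the value for the end.

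The excess over other chromosomes reached to the last fragments before the telomere. In 500-kb windows counted from the viewpoint, each of the 14 windows exceeded the density of other chromosomes by fragments in each of the 6 libraries. By reads the same held in 5 libraries, and in EV replicate 2 for 9 of 14 windows. Some of the excesses by fragments were small and rest on few fragments. In chr5:178352458-178852457 the relative density was 1.07 in EV replicate 2, with 8 fragments, and 1.16 in DKO replicate 1, with 7. Whether single windows exceed counting error was not tested. In the last window, chr5:180352458-180852457, of which 0.429 Mb is covered by the listed span, the relative density was 1.98 and 1.40 in EV, 1.74 and 3.17 in S1KO, and 1.73 and 2.64 in DKO. The first window, chr5:173852458-174352457, had 4.95 and 2.00 in EV, 4.34 and 4.15 in S1KO, and 5.78 and 6.62 in DKO. Every library was thus lower in the last window than in the first.

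**Figure D1:**
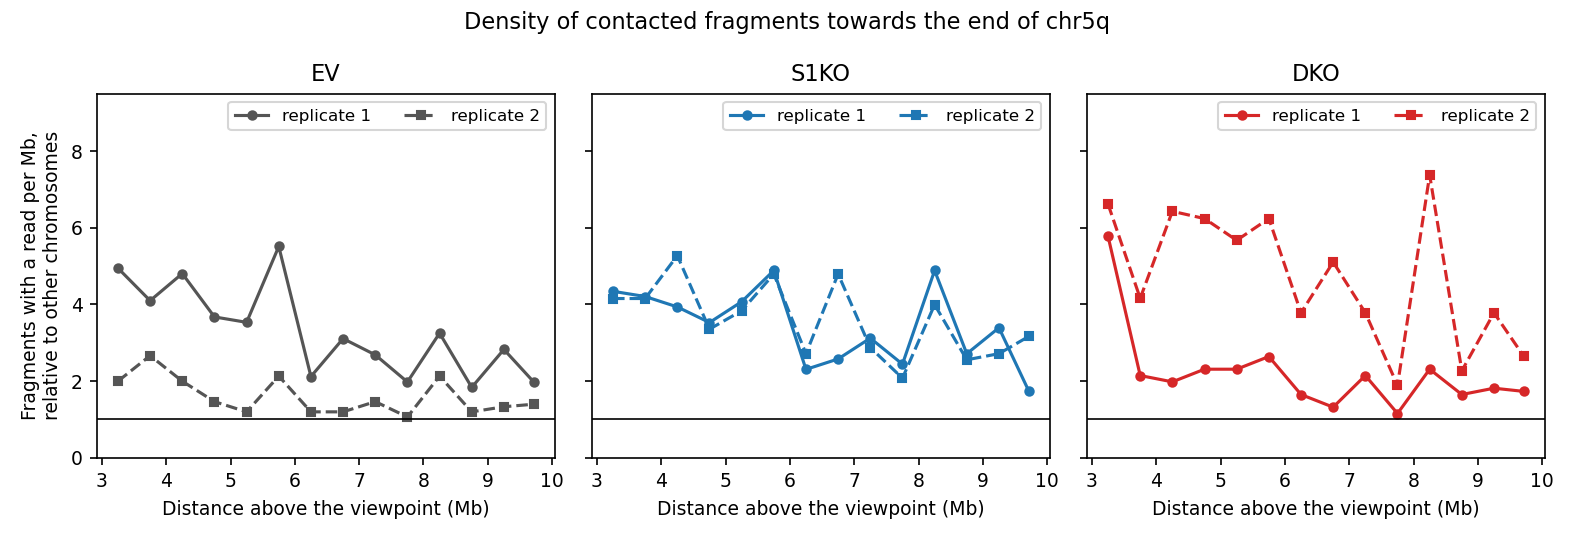
Fragments with at least 1 read per Mb in the 14 windows of 500 kb of the end of chr5q, divided by the density over all other chromosomes in the same library, against the distance above the viewpoint in Mb. Each panel is a group, each line a library, and the horizontal line marks the level of other chromosomes; all points lie above it, with EV replicate 2 and DKO replicate 1 nearest to it.

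The decline along the end was not smooth, and parts of its shape recurred in all 6 libraries. The window from 5.5 to 6 Mb above the viewpoint, chr5:176352458-176852457, held 39 and 16 fragments with a read in EV, 36 and 30 in S1KO, and 16 and 33 in DKO. It ranked between 1 and 4 among the 13 complete windows in every library. Its outward neighbour, chr5:176852458-177352457, held 15 and 9 in EV, 17 and 17 in S1KO, and 10 and 20 in DKO, fewer in each of the 6 libraries. Another local high lay at chr5:178852458-179352457, 8 to 8.5 Mb above, with 23 and 16 fragments in EV, 36 and 25 in S1KO, and 14 and 39 in DKO. Both windows beside it had fewer in all 6 libraries. The inward one, chr5:178352458-178852457, held 14 and 8 in EV, 18 and 13 in S1KO, and 7 and 10 in DKO, and ranked 12 or 13 in every library. Across the 13 windows, the numbers of fragments correlated between the replicates at a Spearman coefficient of 0.75 for EV, 0.60 for S1KO and 0.75 for DKO. These are correlations across windows of the same libraries and share the number of HindIII fragments per window, which was not known here.

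The outer part of the end, from 6.5 Mb above the viewpoint to the last fragment, held fewer reads than the inner part from 3 to 6.5 Mb in every library. The ratio of outer to inner reads was 0.662 and 0.681 in EV, 0.608 and 0.737 in S1KO, and 0.622 and 0.611 in DKO. By fragments with a read it was 0.606 and 0.758 in EV, 0.756 and 0.768 in S1KO, and 0.632 and 0.676 in DKO. At the same distances below the viewpoint, the ratio was 1.06 to 1.53 by reads and 0.921 to 1.22 by fragments over the 6 libraries. Each library had a lower ratio in the end than below by both measures. Between groups, the read ratio in the end differed by log2 -0.12 for DKO minus EV (SE 0.024, 2 libraries each; exact permutation p = 0.333) and by log2 -0.0034 for S1KO minus EV (SE 0.14). By fragments, DKO minus EV was log2 -0.052 (SE 0.17) with overlapping groups (exact permutation p = 1.0), and by reads with high fragments capped it was log2 -0.040. With 2 libraries against 2, no exact two-sided test can go below 0.333. In all, 30 such tests were made, and the 17 at this lowest p have an adjusted p of 0.588.

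Single fragments of the end recurred between libraries far more often than fragments of other chromosomes. Of the 920 fragments, 440 (47.8%) were listed in 1 library, 263 in 2, and 217 (23.6%) in 3 or more. On other chromosomes 82.7% of 186498 fragments were listed in 1 library and 2.17% in 3 or more, and at equal distances below the viewpoint 18.1% of 1267 were in 3 or more. Between replicates, 57 fragments of the end were shared in EV (17.5% and 34.1% of the 2 lists), 109 in S1KO (30.9% and 34.8%) and 58 in DKO (31.2% and 16.7%). Shares were as high between groups: EV replicate 1 and S1KO replicate 1 shared 118 fragments, 36.2% and 33.4% of their lists. Fragments listed in 1 library had a median length of 2.42 kb, and those in 3 or more of 5.13 kb. On other chromosomes both medians were near 2.3 kb (2.32 and 2.34 kb). At equal distances below the viewpoint they were 2.15 and 3.66 kb. Recurrent fragments were thus the longer ones in the end and below the viewpoint alike. Recurrence also rises with density, and the end had 1.61 to 4.73 times the density of listed fragments on other chromosomes. The parts of length and density in the recurrence were not tested.

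**Figure D2:**
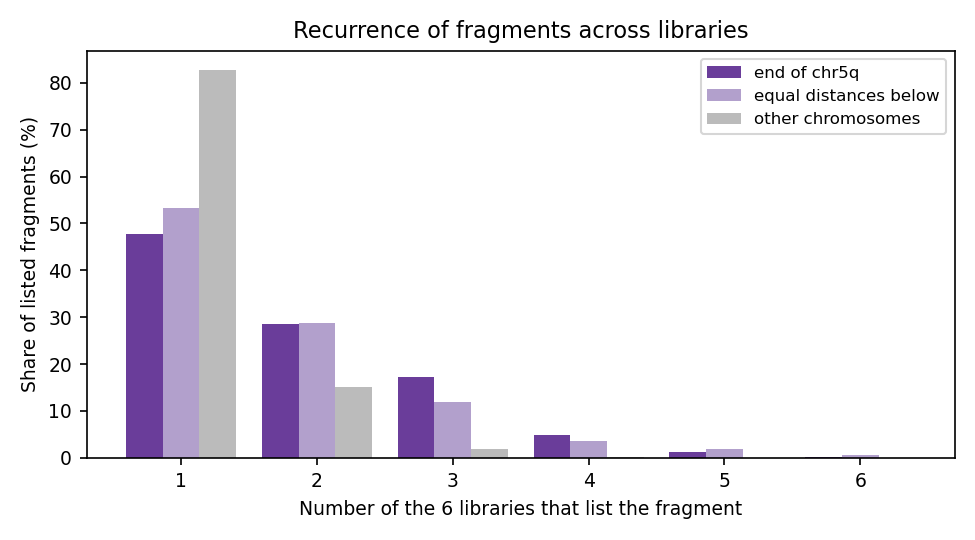
Share of listed fragments, in percent, by the number of libraries (1 to 6) that list them, for the end of chr5q (920 fragments), the equal distances below the viewpoint (1267) and other chromosomes (186498). Fragments in 3 or more libraries make up 23.6%, 18.1% and 2.17%.

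Only 2 fragments of the end had reads in all 6 libraries. The fragment chr5:179047014-179058052, 8200.1 kb above the viewpoint and within the outer local high, had 16 and 156 reads in EV, 76 and 42 in S1KO, and 86 and 23 in DKO. The other, chr5:175990859-176006182, had 3 and 81 in EV, 22 and 48 in S1KO, and 28 and 52 in DKO. Replicates of 1 group differed in both fragments as widely as the groups did. Scaled to chromosome 5 reads outside the 10 kb beside the viewpoint, the first was also the fragment of the end with the highest mean in EV, at 433 ± 460 reads per 1000000 (CPM; SD, n = 2). The next 4 in EV had means of 343 to 415 CPM. Among them, chr5:176772605-176773482 had 33 and 125 reads in EV, 0 and 75 in S1KO and 0 in both DKO libraries, and chr5:178951425-178960137 had 27 and 104 in EV, 33 and 0 in S1KO and 0 in both DKO libraries. Another of the 4, chr5:175565648-175567922, was listed in EV replicate 2 alone, with 155 reads. Across the 920 fragments, Spearman coefficients of read counts between replicates were -0.011 in EV, -0.041 in S1KO and -0.072 in DKO. Fragments enter this set by having a read in any library, so that those at 0 everywhere are left out.

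None of these fragments counted as an interaction in the values the authors deposited. At a deposited q-value under 0.05 the end held 0 of 326 and 0 of 167 listed fragments in EV, 0 of 353 and 0 of 313 in S1KO, and 0 of 186 and 0 of 347 in DKO. By counting error alone, 0 allows shares of up to 0.920% and 1.80%, 0.850% and 0.958%, and 1.61% and 0.865%. These are approximate 95% limits that take the listed fragments of a library as independent. Over chromosome 5 the called share was 0.188% and 0.126% in EV, 0.281% and 0.303% in S1KO, and 0.15% and 0.281% in DKO. Each of these lies under the limit of its library, so by counting error alone such a share was not detectable as missing there. All calls on chromosome 5 lay within 3 Mb of the viewpoint in each library, so the whole-chromosome share is no expectation for the end. The part of chromosome 5 more than 3 Mb below the viewpoint held 0 calls too. At a deposited p-value under 0.05 the end also held 0 fragments in each library, where chromosome 5 held 0.411% and 0.228% in EV, 0.596% and 0.605% in S1KO, and 0.226% and 0.473% in DKO. Other chromosomes held 2.64% and 4.72% in EV, 1.76% and 2.94% in S1KO, and 0.328% and 0.107% in DKO. At a deposited q-value under 0.05 other chromosomes held 0.123% and 0.234% in EV, 0.0529% and 0.113% in S1KO, and 0.00585% and 0% in DKO. The lowest deposited p-value in the end was 0.387, for chr5:176431838-176446984 with 157 reads in S1KO replicate 2. The furthest deposited call above the viewpoint lay at 588 kb, in S1KO replicate 1.

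The ratio of reads in the end of chr5q to reads at equal distances below FGF18 was lower in DKO than in EV or S1KO. For each read below, EV libraries had 0.752 and 0.781 reads in the end, S1KO libraries 0.856 and 1.03, and DKO libraries 0.378 and 0.511. Both DKO libraries lay below the other 4. DKO minus EV was log2 -0.80 (SE 0.22, 2 libraries each), 0.574 times the EV ratio, and DKO minus S1KO log2 -1.09 (SE 0.25), each with an exact permutation p of 0.333. Without EV replicate 2 or any other single library, DKO minus EV lay between log2 -1.02 and -0.58. S1KO minus EV was log2 0.29 (SE 0.13; exact permutation p = 0.333), and 0.16 without S1KO replicate 2.

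The same order held when fragments with a read were counted in place of reads. The ratio of fragments in the end to fragments below was 0.853 and 0.861 in EV, 0.859 and 1.11 in S1KO, and 0.476 and 0.631 in DKO. DKO minus EV was log2 -0.65 (SE 0.20; exact permutation p = 0.333), and S1KO overlapped EV. The difference in DKO did not come from a few windows. In DKO replicate 1 each of the 14 windows of the end had fewer fragments than its mirror below, and in DKO replicate 2 12 of 14 had. For EV it was 9 and 7 of 14 (with 3 ties in replicate 2), and for S1KO 6 and 3 of 14 (with 1 tie in replicate 1). The stretch below was itself denser in DKO: relative to other chromosomes it had densities of 3.90 and 1.87 in EV, 4.02 and 3.25 in S1KO, and 4.66 and 7.50 in DKO. The relative density of the end overlapped between EV and DKO. A lower ratio in DKO thus does not by itself mean fewer contacts with the end.

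**Figure D3:**
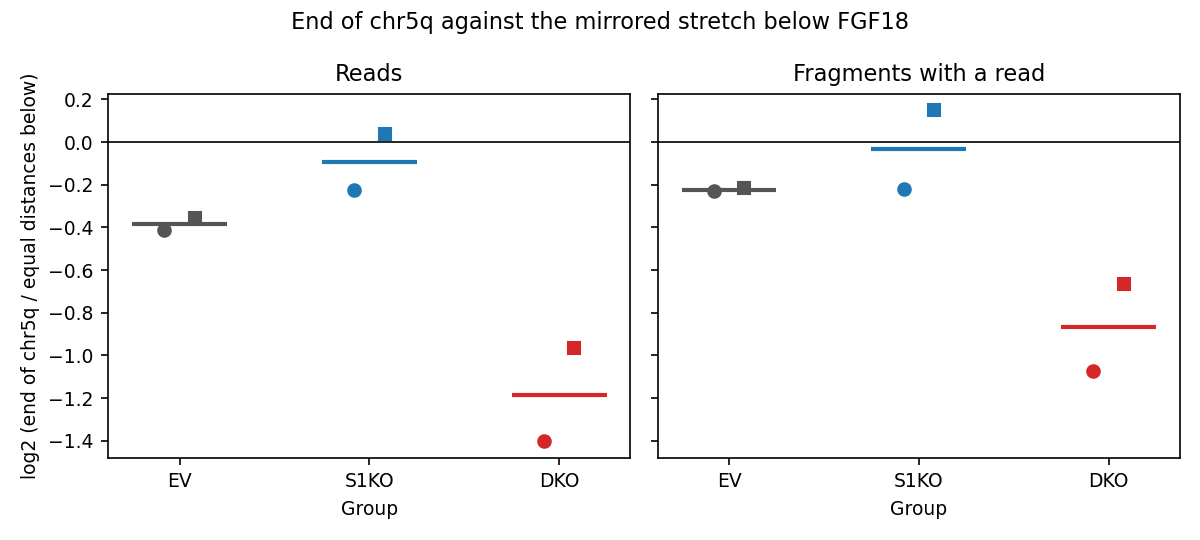
log2 of the ratio between the end of chr5q and the equal distances below the viewpoint, by reads (left) and by fragments with at least 1 read (right). Circles are replicate 1, squares replicate 2, and bars the mean of the 2 libraries; both DKO libraries lie below the 4 others in both panels.

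As a share of chromosome 5 reads outside the 10 kb beside the viewpoint, the end took 3.33% and 2.85% in EV, 3.66% and 3.92% in S1KO, and 1.59% and 2.28% in DKO. The 95% Wilson intervals reach at most 0.0923 points to either side and cover counting error only, since PCR reads are not independent molecules. The groups did not overlap, and their means were 3.09% ± 0.341 for EV, 3.79% ± 0.184 for S1KO and 1.94% ± 0.490 for DKO (SD, 2 libraries each). The differences were 0.698 points for S1KO minus EV (0.456 without EV replicate 2), -1.15 for DKO minus EV and -1.85 for DKO minus S1KO, each with an exact permutation p of 0.333. This share also falls when reads gather near the viewpoint. As a share of chromosome 5 reads beyond 3 Mb, DKO minus EV was -0.653 points with overlapping groups (exact permutation p = 0.667). S1KO minus EV was then 2.06 points and DKO minus S1KO -2.72. As a share of all reads of the library the end took 0.701% and 0.305% in EV, and 0.389% and 0.823% in DKO, so that DKO minus EV was 0.103 points, in the opposite direction. For S1KO it was 0.787% and 0.751%, with S1KO minus EV at 0.266 points. DKO minus S1KO was -0.163 points with overlapping groups. By fragments with a read, the end took 5.58% and 4.22% of those on chromosome 5 in EV, 5.84% and 6.31% in S1KO, and 3.50% and 5.13% in DKO. There EV and DKO overlapped.

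No 500-kb window of the end passed the test in any comparison. With edgeR's quasi-likelihood test over all 356 windows of 500 kb of chromosome 5 with enough reads, 0 of the 14 windows of the end had an adjusted p under 0.05 in S1KO against EV, DKO against EV or DKO against S1KO. Over chromosome 5 the called share was 0% in each comparison too. Windows of the end with an unadjusted p under 0.05 numbered 0, 0 and 1 in this order, where chromosome 5 had 1.69%, 10.4% and 3.93% of its windows. By DESeq2 0 of 14 passed in each, against 0%, 1.97% and 0% of the chromosome. With numbers of fragments with a read (281 windows tested, called share 0%), edgeR called 0 of 14 in each comparison, with unadjusted p under 0.05 in 0, 0 and 3, against 2.14%, 8.9% and 5.69% of the chromosome. By DESeq2 0 passed, against 0%. With windows of 250 kb, 1 of the 18 tested in the end passed by fragments for DKO against EV, lower in DKO, and was the single call among 204 tested. The 3 comparisons share libraries, so their values are given side by side and are not independent.

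For S1KO against EV the windows of the end stood at a median of log2 0.48 by reads and 0.34 by fragments, with all 14 above 0 by both measures. These values moved with the EV libraries: without replicate 2 the medians were log2 0.26 and 0.21, with 9 and 10 of 14 above 0. Without EV replicate 1 the medians were log2 0.89 and 0.57, and without S1KO replicate 2 the fragment median was 0.21, with 12 of 14 above 0. The median over all chromosome 5 windows was log2 -0.0029 by reads and 0.055 by fragments. At equal distances below the viewpoint, the medians of the mirrored 14 windows were log2 0.20 and 0.077, with 12 and 10 of 14 above 0. The windows come from the same libraries, so a common sign is not 14 separate observations. In reads per 1000 of chromosome 5, the groups did not overlap in 6 of the 14 windows of the end, S1KO being higher in each, against 9.55% of all windows on the chromosome higher and 23.0% lower. By fragments S1KO was higher without overlap in 8 of 14 and lower in 0, against 14.9% and 13.5%. The window with the lowest p by reads was chr5:179852458-180352457, 9 Mb above the viewpoint, at 2.54 and 1.72 reads per 1000 for S1KO and 1.64 and 1.16 for EV (log2 0.81, SE 0.58; edgeR, adjusted p = 0.969). This value was 0.38 without EV replicate 2, 0.45 without S1KO replicate 1 and 1.43 without EV replicate 1. By fragments, chr5:179352458-179852457 held 20 and 16 fragments for S1KO and 13 and 9 for EV (log2 0.58, SE 0.42; edgeR, adjusted p = 0.996). Neither passed the test.

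For DKO against EV the windows of the end stood close to the rest of the chromosome in the scaled fit. Their median was log2 -0.045 by reads, with 6 windows above and 8 below 0, against -0.090 over all windows. By fragments it was log2 -0.18, against -0.055. The mirrored windows below the viewpoint stood at log2 0.64 by reads and 0.46 by fragments, with all 14 above 0. The direction in the end depended on the scaling and on single libraries. With chromosome 5 totals and no TMM, the median was log2 -0.72 and all windows of the chromosome moved to a median of -0.78. With DESeq2 it was 0.055. Without EV replicate 1 it was log2 0.37 and without EV replicate 2 -0.35, while without DKO replicate 1 it was 0.23 and without DKO replicate 2 -0.42. By fragments it was 0.068, -0.27, 0.0039 and -0.52 in the same order. In reads per 1000 of chromosome 5 the groups did not overlap in 10 of the 14 windows, DKO being lower in each, against 46.9% of all windows on the chromosome lower and 6.46% higher. By fragments DKO was lower without overlap in 4 of 14 and higher in 0, against 23.5% and 18.1%.

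The lowest p for DKO against EV by fragments was that of chr5:174352458-174852457, 3.5 Mb above the viewpoint. It held 13 and 22 fragments in DKO and 29 and 20 for EV (log2 -0.76, SE 0.41; edgeR, adjusted p = 0.54). As a share of the chromosome 5 fragments, both DKO libraries were lower. By reads, the lowest p was that of the first window, chr5:173852458-174352457, with 3.21 and 2.03 reads per 1000 in DKO and 3.11 and 1.82 for EV (log2 0.65, SE 0.54; edgeR, adjusted p = 0.685). It was log2 1.45 without EV replicate 1, 0.12 without EV replicate 2 and 0.088 without TMM. The fold change includes TMM, which the values per 1000 leave out. This window nearest to FGF18 was the single one of the 14 with a higher mean in DKO than in EV by reads per 1000. The last window, chr5:180352458-180852457, had 0.597 and 0.693 reads per 1000 in DKO and 1.60 and 1.58 for EV (log2 -0.63, SE 0.61; edgeR, adjusted p = 0.713). It was log2 -0.32 without EV replicate 1, -0.39 without DKO replicate 1 and -1.30 without TMM.

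For DKO against S1KO, 13 of the 14 windows stood below 0 by both measures. The median was log2 -0.60 by reads and -0.58 by fragments, against -0.043 and -0.071 over all windows of the chromosome. These values moved with the DKO libraries: without replicate 1 the medians were log2 -0.27 and -0.24, with 10 and 12 of 14 below 0, and without DKO replicate 2 they were -1.08 and -0.90. Without TMM the read median was -1.02, and that of all windows -0.44. The mirrored windows below the viewpoint stood at log2 0.48 and 0.41. In reads per 1000 the groups did not overlap in 12 of 14, DKO being lower, against 35.7% of all windows lower and 7.87% higher. By fragments DKO was lower without overlap in 8 of 14 and higher in 0, against 19.9% and 18.1%. In chr5:174352458-174852457, S1KO libraries had 3.62 and 4.51 reads per 1000 and DKO libraries 1.03 and 1.58 (log2 -1.18, SE 0.51, edgeR adjusted p = 0.867). With chromosome 5 totals and no TMM this window passed, at log2 -1.64 (edgeR adjusted p = 0.0279); over the other 12 settings its adjusted p was 0.375 to 0.989. By fragments, the low window chr5:178352458-178852457 held 18 and 13 in S1KO and 7 and 10 for DKO (log2 -1.004, SE 0.46; edgeR, adjusted p = 0.768).

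**Figure D4:**
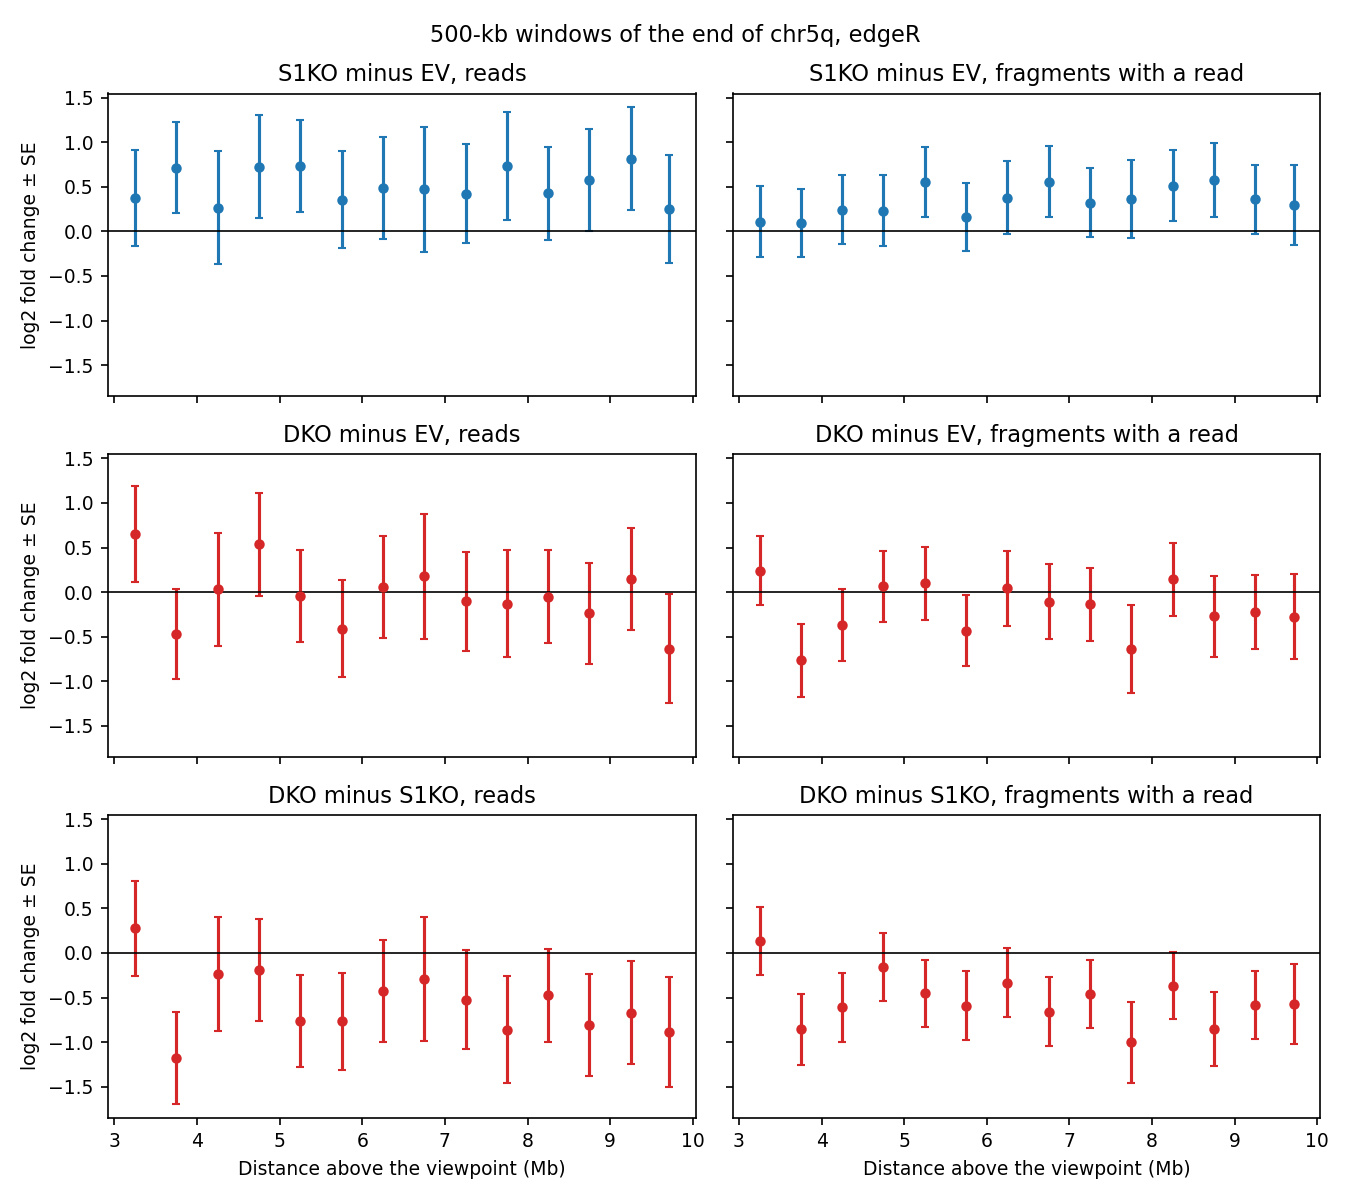
log2 fold changes from edgeR (points) and standard errors derived from its F statistic (bars) for the 14 windows of 500 kb of the end of chr5q, against the distance above the viewpoint in Mb, by reads (left column) and by fragments with a read (right column), for the 3 comparisons. In S1KO minus EV all points lie above 0, in DKO minus EV they lie on both sides, and in DKO minus S1KO 13 of 14 lie below; none passed the test.

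At the level of single fragments, 328 of the 920 fragments had at least 10 reads in at least 2 libraries and were tested among 5017 on chromosome 5. edgeR called 0 of them in each comparison, against 0% of the chromosome. Unadjusted p-values under 0.05 were found in 0 for S1KO against EV, in 3 for DKO against EV and in 2 for DKO against S1KO, of the 328. Over chromosome 5 such p-values took 0.937%, 1.65% and 0.917% of the 5017. By DESeq2 0, 4 and 1 of the 328 passed, all lower in DKO, against 9, 27 and 8 of the 5017 (0.179%, 0.538% and 0.159%). The lowest p for DKO against EV, and also for DKO against S1KO, was that of chr5:176199886-176216281, 5356 kb above the viewpoint. It had 32 and 60 reads in EV, 81 and 53 in S1KO and 0 in both DKO libraries. Against a floor of 3 reads per library, DKO was 38.0-fold lower than EV (edgeR adjusted p = 0.466). This is no lower bound on the change, since a listed fragment of the end had a median of 32 and 26 reads in DKO. Next came chr5:175967398-175976492, with 62 and 71 reads in EV, 128 and 0 in S1KO and 0 in both DKO libraries (edgeR adjusted p = 0.466). For S1KO against EV the lowest p belonged to chr5:174284250-174290245, with 65 and 24 reads in EV, 0 in both S1KO libraries, and 0 and 68 in DKO (edgeR, adjusted p = 0.438). Next came chr5:175576154-175580821, with 122 and 0 reads in S1KO, 43 and 96 in DKO and 0 in both EV libraries (edgeR, adjusted p = 0.438). In each of these last 3 fragments the libraries of 1 group differed between 0 and many reads.

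An absence from both libraries of a group was common in the end: 445 of the 920 fragments (48.4%) were in neither DKO library, 484 in neither EV library and 363 in neither S1KO library. Fragments listed in both EV libraries and in neither DKO library numbered 31, and those in both DKO and in neither EV library 35. Over chromosome 5 the same patterns took 1.46% and 3.65% of the fragments, and in the end 3.37% and 3.80%. Fragments listed in both S1KO libraries and in neither DKO library numbered 55 (5.98%, against 1.98% over chromosome 5), and the reverse 14 (1.52%, against 2.97%). For S1KO and EV the counts were 57 in both S1KO and neither EV library (6.20%, against 2.83%) and 22 in the reverse (2.39%, against 1.52%). These counts rise with the number of fragments a library lists, which was lowest for the end in EV replicate 2 and DKO replicate 1.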

How the data were processed

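A MiSeq was used for the 6 libraries, per the labels' protocols. The submitters' processing notes name Bowtie2 2.2.5 and hg19; for the interaction caller and its filters, nothing is given in the sources used here. The authors deposited raw read counts per HindIII fragment, per the file headers. Values the authors deposited as RPMs are treated as a score and were not used. The p-values and q-values per fragment were deposited by the authors for each library.

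Unlisted fragments were counted as 0. The viewpoint fragment is the chr5 fragment with most reads, and the 3 fragments within 10 kb were left out. Reads per fragment, reads per 500-kb window and fragments with a read per window were tested over all of chr5 by the quasi-likelihood test of edgeR 4.0.16 under R 4.3.3. A single fit held the 6 libraries and the features with 10 or more counts in 2 or more of them, scaled with TMM to each library's chr5 reads (or chr5 fragments with a read) outside those 10 kb. Benjamini-Hochberg adjustment was used with a threshold of 0.05. The edgeR test gives no standard error. Each SE beside an edgeR fold change is the absolute log2 fold change divided by the square root of the F statistic. DESeq2 1.42.0, other scalings, filters, window sizes, denominators and single libraries left out were alternatives. Windows of the end named in the text are those past the threshold or, where fewer than 3 pass, the 3 with the lowest p; fragments are the 5 with the highest mean in EV, those with reads in all 6 libraries and, per comparison, the 2 with the lowest p. Windows at local highs and lows were chosen after their values were seen. Ratios and shares were compared by exact two-sided permutation tests (Python 3.11.15, scipy 1.17.1). Density is per Mb between the first and last listed fragment of each chromosome. The fits were also run on simulated counts with known changes, as a check of the code whose outcome is not given here. Labels name no batch. Deviations of replicate 1 from the group mean correlated at 0.21 (EV and S1KO), -0.29 (EV and DKO) and -0.069 (S1KO and DKO) over 358 windows. This does not settle whether replicate numbers pair the libraries, and the main fits did not pair them. The stretch and the tests were chosen with earlier results of these data known.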

Additional observations from a re-analysis of the deposited data

How the results depend on the processing

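The ratio of the end to the equal distances below kept its direction in each comparison under every alternative: fragments with a read, capped reads, at least 3 reads, without the last 1 Mb, and each library left out (log2 -1.02 to -0.58 for DKO minus EV, -1.31 to -0.87 for DKO minus S1KO, 0.16 to 0.42 for S1KO minus EV). A replicate block cannot move the mean difference in this ratio, since each group holds 1 library of each replicate number. Its log2 -0.80 for DKO minus EV is thus no check. In the edgeR fits the replicate block gave 0 calls in the end. The share of chr5 reads reversed for DKO minus EV as a share of all reads, to 0.103 points. With 1 library left out it lay between -1.50 and -0.81 points for DKO minus EV, -2.20 and -1.51 for DKO minus S1KO and 0.46 and 0.94 for S1KO minus EV. The density relative to other chromosomes has no settled direction for DKO: without EV replicate 2 DKO minus EV was log2 -0.092, without DKO replicate 2 -0.053 (range -0.092 to 1.29), and without DKO replicate 1 DKO minus S1KO was 0.45 (range -0.86 to 0.45). The outer to inner ratio of S1KO minus EV reversed by fragments (0.17), with capped reads (0.059), without EV replicate 2 (0.017) and without S1KO replicate 1 (0.14; range -0.14 to 0.14), and that of DKO minus S1KO without S1KO replicate 2 (0.019; range -0.26 to 0.019). Calls in the end moved from 0 to 1 window without TMM (DKO against S1KO, reads), to 1 with 250-kb windows (DKO against EV, fragments with a read), and by DESeq2 to 4 and 1 fragments (DKO against EV and DKO against S1KO), of 27 and 8 called on chr5. With 1 library left out they stayed at 0 in each fit. For DKO against EV, the window from 4.5 Mb reversed by reads without TMM (log2 -0.13) and without DKO replicate 2 (-0.32; range -0.32 to 1.17), and the window from 5.5 Mb by fragments without EV replicate 1 (0.058; range -0.85 to 0.058). The cause was not tested. With 2 libraries a group and 167 to 353 fragments each in the end, small differences were not detectable at this depth. Large ones could be missed too. In the main fits, chr5:176772605-176773482 did not pass for DKO minus EV at log2 -9.75 (SE 4.02; edgeR adjusted p = 0.466). Both DKO libraries had 0 reads there, against 33 and 125 in EV, so this log2 value has no firm size. Absence from both DKO libraries was common in the end (48.4% of fragments), so the value need not mean a large change. The window from 3.5 Mb did not pass by reads for DKO minus S1KO at log2 -1.18 (SE 0.51; edgeR adjusted p = 0.867). The exact permutation tests cannot go below 0.333 at any size of difference.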
